A study of Caenorhabditis elegans with 7 samples.

Results

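The genes csr-1, pgl-1 and set-26, which act in germline RNA and chromatin regulation, were examined in DD motor neurons and in all cells of first-stage (L1) larvae of Caenorhabditis elegans. They are 3 of the 201 genes that the authors' deposited list of probe sets higher in DD neurons names, each with 1 probe set out of 22548 tested. A probe set is a group of short probes on the array that together read a transcript. The members were found by gene name in that list, so the contrast of DD neurons with all cells had already selected them. The direction and size of each difference between the groups are therefore given as a description, and nothing is supported with them.

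DD neurons use GABA as transmitter and act on body muscles from the ventral nerve cord. The 4 DD samples came from strain CZ8332, which carries the transgene juIs223 on chromosome IV. In it the ttr-39 promoter drives the mCherry used for the sort (pttr-39::mcherry), and the ttx-3 promoter drives a second reporter (pttx-3::GFP). The sample labels name GFP as the label of the DD samples, whereas the design text gives mCherry for the sort, and the latter was followed here. The 3 all-cell samples came from the strain N2 without a reporter. In both groups the larvae hatched overnight at 20 °C in M9 buffer without food and were arrested in growth. From each sample 5 to 10 ng of total RNA was amplified for 1 Affymetrix array. Strain, sort and cell type changed together, so their parts in any difference cannot be told apart. The all-cell RNA also holds the RNA of DD neurons and of the germ cell precursors.

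Argonaute proteins bind small RNAs and are guided by them to matching transcripts. CSR-1 is an Argonaute with a PAZ and a PIWI domain that binds small RNAs made by an RNA-dependent RNA polymerase, mostly against germline-expressed messages, and it is needed for germline development and chromosome segregation. PGL-1 is a constitutive protein of P granules, the RNA-rich condensates that sit at the nuclear pores of germ cells, where CSR-1 is also found. SET-26 carries a PHD finger and a SET domain, binds methylated histone H3 and limits lifespan. All of these are best known from the germline or as broad chromatin factors, and none of them is a marker of DD neurons.

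Across probe sets, the mean correlation of an array with the others of its group was 0.960 to 0.971, lowest for DD replicate 1. Of the 12 genes on the list of D-type GABA neuron markers, 7 could be named, and their mean log2 level was 9.20 to 9.70 in the DD arrays and 6.51 to 6.92 in the all-cell arrays. Among them unc-25, the GABA-synthesising enzyme gene, was 8.32-fold higher in DD neurons, ttr-39 was 11.2-fold, the fate-specifying homeobox gene unc-30 10.3-fold and the vesicular GABA transporter gene unc-47 5.79-fold higher. The fold of unc-47 is not exact, since its all-cell mean of 4.67 was under the median of each all-cell array (5.33 to 5.38). The authors' list holds only probe sets higher in DD neurons, so these markers were selected by the same contrast. Another 77 probe sets are array controls, which were left out of the tests. They had a mean level of 5.85 in DD neurons and 5.49 in all cells, a median difference of 0.34, while the median over all tested probe sets was 0.06 (log2).

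The Argonaute gene csr-1 (F20D12.1, probe set 184755_at) read 6.77, 7.44, 7.75 and 7.08 in DD replicates 1 to 4, and 6.60, 5.77 and 5.75 in all cells replicates 1 to 3, on the log2 scale of the deposited values. The groups did not overlap, but DD replicate 1 and all cells replicate 1 were only 0.17 apart. The DD mean was 7.26 ± 0.42 (SD, n = 4) and the all-cell mean 6.04 ± 0.49 (SD, n = 3). The difference was 1.22 ± 0.34 SE (log2), or 2.33-fold. It was 1.50 without all cells replicate 1, the highest of its group, and 1.08 without all cells replicate 3, the lowest. In a bulk sample, fewer cells that express a gene and less RNA of it per cell cannot be told apart, which holds for each value below as well.

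The P granule gene pgl-1 (ZK381.4, probe set 187974_s_at) read 6.69, 6.29, 5.14 and 6.21 in DD replicates 1 to 4, and 5.08, 4.75 and 5.20 in all cells replicates 1 to 3. DD replicates 1, 2 and 4 stood above all the all-cell arrays, while DD replicate 3 lay within the range of the all-cell arrays. The groups therefore overlapped, as they did for 14 of the 236 listed probe sets. The DD mean was 6.08 ± 0.67 (SD, n = 4), against 5.01 ± 0.23 (SD, n = 3) for all cells. The difference of 1.07 ± 0.41 SE, or 2.11-fold, became 1.39 ± 0.20 SE without DD replicate 3. All 3 all-cell values lay below the medians of their arrays, as did the value of DD replicate 3 (5.14 against a median of 5.30). The deposited values carry no detection call. Expression of pgl-1 above background was thus not shown in all cells or in DD replicate 3, and its fold is not exact.

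The chromatin gene set-26 (Y51H4A.12, probe set 184300_s_at) read 8.53, 8.72, 8.31 and 8.60 in DD replicates 1 to 4, and 7.39, 7.38 and 7.53 in all cells replicates 1 to 3. The groups were clearly apart, with the lowest DD array 0.78 above the highest all-cell array. Means were 8.54 ± 0.17 (SD, n = 4) for DD neurons and 7.43 ± 0.08 (SD, n = 3) for all cells, a difference of 1.11 ± 0.11 SE or 2.15-fold. The suffix of the probe set marks it as matching several transcripts. In the authors' deposited table the protein has 1677 residues and is 96% identical (1616 of 1679 residues) to its paralog SET-9, and set-9 is not among the named genes. The value may therefore hold transcripts of both genes, and it is given as uncertain for set-26 alone. The probe set of pgl-1 has the same suffix, so its value may also hold several transcripts, and which ones was not checked. That of csr-1 lacks the suffix.

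**Figure D1:**
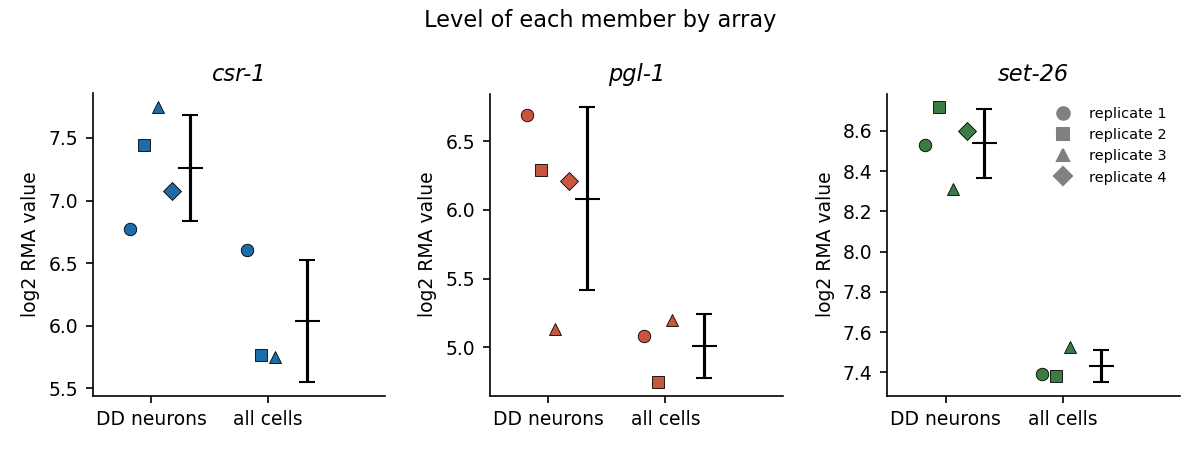
Log2 level (y axis, RMA values) of csr-1, pgl-1 and set-26 in the DD neuron and all-cell arrays. Symbols are single arrays, shaped by replicate number, and the bars beside them give the mean ± SD (n = 4 and n = 3), with a separate y range in each panel. The groups are far apart for set-26, nearly touch for csr-1 and overlap for pgl-1, where DD replicate 3 reads 5.14.

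A rank on each array does not depend on the scale of that array. The share of tested probe sets with a lower value than csr-1 was 71.5% to 81.6% in the DD arrays and 54.8% to 67.5% in the all-cell arrays. For set-26 it was 86.7% to 89.4% in DD neurons and 76.1% to 78.6% in all cells. For pgl-1 it was 63.0% to 70.5% in DD replicates 1, 2 and 4, 47.8% in DD replicate 3 and 42.2% to 47.6% in all cells. By rank, DD replicate 3 thus read pgl-1 just above all cells replicate 3, while by value it read below it. Probe sets differ in brightness for the same amount of RNA, so these shares are compared between arrays and not between genes.

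The differences of the members lay below the median of the authors' list. Over its 236 probe sets the difference between the group means ranged from 1.00 to 6.40 with a median of 1.24, and csr-1 ranked 131st, set-26 179th and pgl-1 192nd by size. Among all tested probe sets, 1.55% were at least 2-fold higher in DD neurons, and 6.98% were separated with all 4 DD arrays on top, as csr-1 and set-26 did and pgl-1 did not. The separated share in the other direction was 6.64%. These shares are printed for scale only, since the list was drawn from the same arrays.

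**Figure D2:**
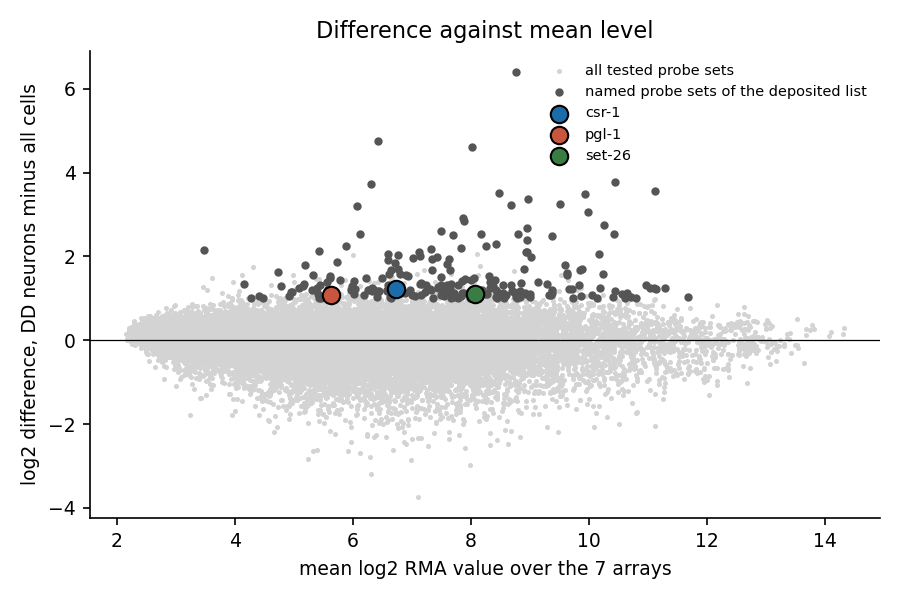
Log2 difference between DD neurons and all cells (y axis) against the mean log2 level over the 7 arrays (x axis) for all tested probe sets, with named probe sets of the deposited list in dark grey and the 3 members in colour. All named probe sets lie at 1.00 or higher, and the members lie near that lower edge, between 1.07 and 1.22.

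By limma over all 22548 probe sets, 0.191% (43) were higher in DD neurons at a Benjamini-Hochberg adjusted p under 0.05 and 0.226% (51) were lower. With arrays centred on their medians the split was 47 higher and 28 lower, and with arrays centred on the array controls it was 40 higher and 393 lower. Of the 3 members, set-26 was under this threshold (limma adjusted p = 0.0392), and csr-1 (0.138) and pgl-1 (0.224) were not. Nothing is read from that count, since the contrast chose the genes. With 1.11, set-26 had the smallest difference of the 43 higher probe sets, whose median was 2.16. Its adjusted p was above 0.05 whichever array was left out (0.0847 to 0.178), and it stayed under 0.05 in 3 of the 13 alternative settings.

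The position of set-26 among these probe sets goes with a small spread between arrays. Its within-group SD was 0.142 (log2), while the median was 0.389 over the 2043 probe sets whose mean level was within 0.5 log2 units of it, and 1.81% of these had a smaller SD. For csr-1 the within-group SD was 0.451 against a median of 0.411 over 2991 probe sets of like level, with 58.7% of them smaller. For pgl-1 it was 0.536 against 0.399 over 3210 probe sets, with 73.9% smaller. Of the 3 members, set-26 thus had a small spread for its level, and the others lay in the middle to upper part of the range. A list selected by a score that sets the difference against the spread favours a small spread, so this is a description too.

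**Figure D3:**
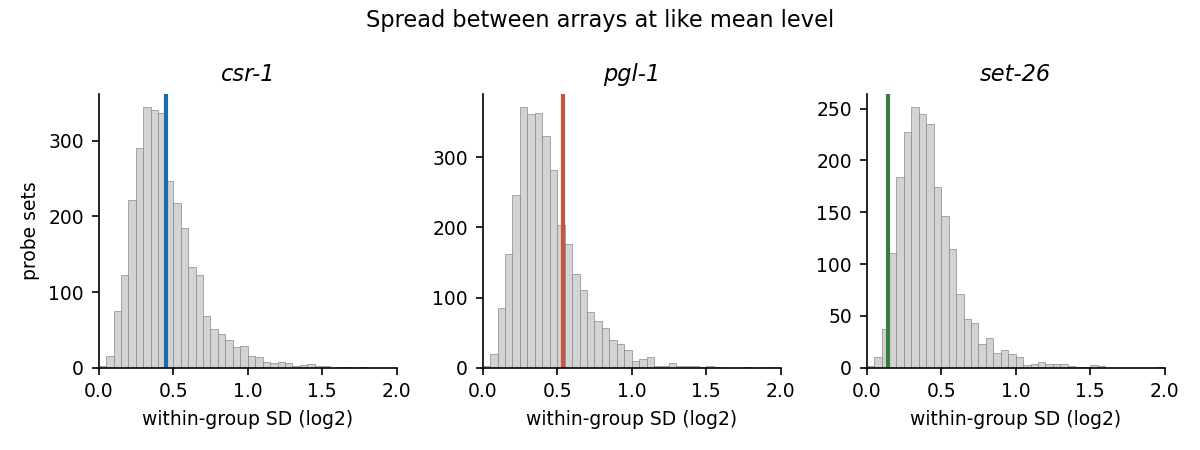
Within-group SD of the log2 values (x axis) of probe sets whose mean level lies within 0.5 log2 units of csr-1, pgl-1 or set-26 (grey bars, number of probe sets on the y axis). The coloured line marks the member, at 0.451 for csr-1, 0.536 for pgl-1 and 0.142 for set-26.

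The variation between arrays of a group did not enter the direction of the contrast, and here the members were compared with each other. DD replicate 3 had the highest csr-1 value of the DD arrays, 0.49 above the group mean, and the lowest values of pgl-1 and set-26, 0.95 and 0.23 below it (deviations of -0.95 and -0.23). DD replicate 1 had the lowest csr-1 value, with a deviation of -0.49, and the highest pgl-1 value, with 0.61. The values of that array also had a narrower spread over all tested probe sets. Its quartiles were 3.84 and 7.03, against 3.61 to 3.68 and 7.15 to 7.18 in the other DD arrays. A part of this in the deviations was not tested. In the all-cell arrays csr-1 stood apart in replicate 1, with a deviation of 0.56, while pgl-1 and set-26 were both highest in replicate 3.

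Over the 7 arrays, the deviations of pgl-1 and set-26 had a Pearson r of 0.74 and a Spearman rho of 0.79, those of csr-1 and pgl-1 an r of -0.57 and a rho of -0.57, and those of csr-1 and set-26 an r of -0.37 and a rho of -0.29. None of the 3 relations passed an exact two-sided permutation test of arrays within groups (144 orders). For r the p-values were 0.188, 0.188 and 0.465, or 0.281, 0.281 and 0.465 after adjustment over the 3 pairs. For rho they were 0.0556, 0.188 and 0.569 by exact permutation, adjusted 0.167, 0.281 and 0.569. The r was also taken without the 2 arrays farthest from the median of the first gene. It was 0.78 for pgl-1 and set-26 without DD replicates 3 and 1. Without DD replicate 3 and all cells replicate 1 it was -0.27 for csr-1 and pgl-1 and 0.79 for csr-1 and set-26. The deviations were still those from the group means over all 7 arrays, and were not centred again on the arrays kept. These r values therefore mix shifts between the groups with variation within them, so no change of size or sign is read from them.

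**Figure D4:**
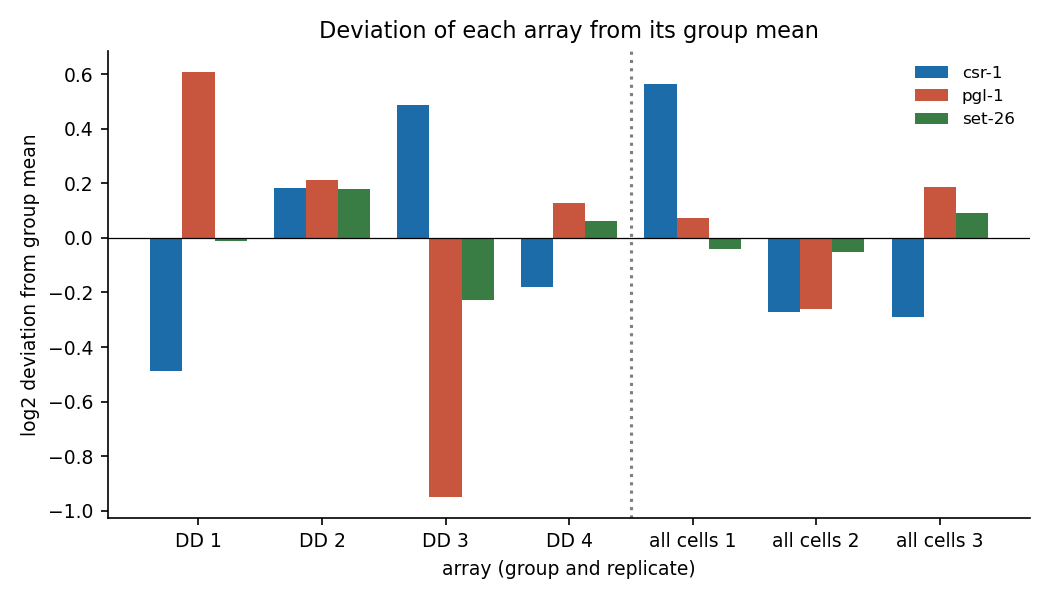
Deviation of each array from its group mean (y axis, log2) for csr-1, pgl-1 and set-26, with the 4 DD arrays left of the dotted line and the 3 all-cell arrays right of it. In DD replicate 3 the bar of csr-1 points up (0.49) and those of pgl-1 (-0.95) and set-26 (-0.23) point down.

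For each member, the 3 named probe sets of other genes with the most similar deviations over the 7 arrays were listed, out of 221 candidates. For csr-1 these were vrk-1, a kinase of the vaccinia-related family (r = 0.94), T23F11.2 (0.86) and ZK1236.7, now ufbp-1 (0.85). For pgl-1 they were T08A11.2, now sftb-1, a subunit of the splicing factor that recognises the branch site (r = 0.93), the presynaptic kinase gene sad-1 (0.88) and the axon outgrowth gene unc-76 (0.87). For set-26 they were the immunoglobulin-type adhesion gene syg-1 (r = 0.95), ZK328.4, now gcna-1, of the germ cell nuclear antigen family (0.84), and the chloride channel gene clh-6 (0.82). The median r over all candidates was 0.04 for csr-1, -0.03 for pgl-1 and -0.07 for set-26. The highest of 221 correlations over 7 arrays are large by their choice, so they carry no test.

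Genes on lists drawn up here for the pathways of the members could be named only where the authors' list holds them. On a list of 65 genes drawn up for Argonautes and small RNA cofactors, csr-1 and tent-5 were named. Of the 2, 1 was called higher by limma, where 0.191% of all tested probe sets were. Both come from a list drawn by the same contrast, so nothing is read from that count. The called gene was tent-5, a non-canonical poly(A) polymerase gene given as pqn-44 in the deposited table, with means of 10.19 ± 0.22 (SD, n = 4) for DD neurons and 8.96 ± 0.11 (SD, n = 3) for all cells. Its difference was 1.23 ± 0.14 SE (limma adjusted p = 0.0377). The place of tent-5 on the list is not a result of these data, and a small RNA role of it was not tested. Of 50 genes of P granules and germline RNA regulation, pgl-1 alone was named, and it did not pass. Of 84 histone methylation and chromatin genes, set-26 and cec-6 were named. The chromodomain gene cec-6, T12E12.2 in the deposited table, averaged 5.75 ± 0.81 (SD, n = 4) on the DD arrays and 4.40 ± 0.26 (SD, n = 3) on the all-cell arrays. The difference was 1.35 ± 0.50 SE (limma adjusted p = 0.206). It is not exact, since the all-cell mean of cec-6 was under the median of each all-cell array (5.33 to 5.38). The median difference of the named genes was 1.23 for both the small RNA and the chromatin list, close to the median of 1.24 over the 236 listed probe sets from which they come, while that over all tested probe sets was 0.06. The selection fixed the distance from the latter. Because unnamed probe sets include every one that was not higher, these counts say nothing of the pathways as a whole.

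Germ cells are the main known site of pgl-1 and csr-1 expression. Of 16 germ cell markers, 1 could be named, and it was pgl-1 itself, so that list gives no level of germ cell RNA apart from the members. Outside it, ZK328.4 (gcna-1), described above for its likeness to set-26, averaged 5.82 in DD neurons and 4.62 in all cells, and it was named through the same selection. Its all-cell mean was also under the median of each all-cell array, so its difference is not exact. Of 20 markers of intestine, muscle, epidermis and pharynx, 3 could be named (acdh-1, ptr-24 and ttn-1), with a mean log2 level of 7.26 to 7.88 in the DD arrays and 6.01 to 6.39 in the all-cell arrays. None of the 3 passed limma's threshold (adjusted p 0.0973 to 0.189). They too were named only because the authors listed them as higher in DD neurons, and the other markers of that list have no value here, so this is no measure of other tissues in the samples. The part of RNA from other cells in the values of the members was not tested. DD replicate 3, with the lowest pgl-1 value of the DD arrays, had a mean level of 9.39 for the 7 named D-type markers and 7.54 for these 3 genes, both inside the range of the other DD arrays. Both sets of genes were named through the same selection, so nothing is read from these levels about the cells in that sample.

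All 3 members lie on chromosome IV in the RefSeq gene table (assembly WBcel235), the chromosome to which the strain label assigns the reporter transgene juIs223. The paralog gene set-9 is on chromosome IV too. Of the 198 named genes matched to that table, 30 (15.2%) were on chromosome IV, against 3281 of 19983 protein-coding genes (16.4%). The share of chromosome IV genes among the probe sets of the array was not determined. An effect of the transgene on the members was not tested, and it cannot be told apart from strain, sort and cell type. The nearest protein-coding genes by start position were ceh-19 and frpr-10 for csr-1, nhr-249 and him-3 for pgl-1, and Y51H4A.13 and tsr-2 for set-26. None of these neighbours was among the named genes, so they have no value here. RefSeq lists 2 mRNAs each for csr-1 and pgl-1 and 1 for set-26, and a single probe set per gene gives no separate value for them.

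**Figure D5:**
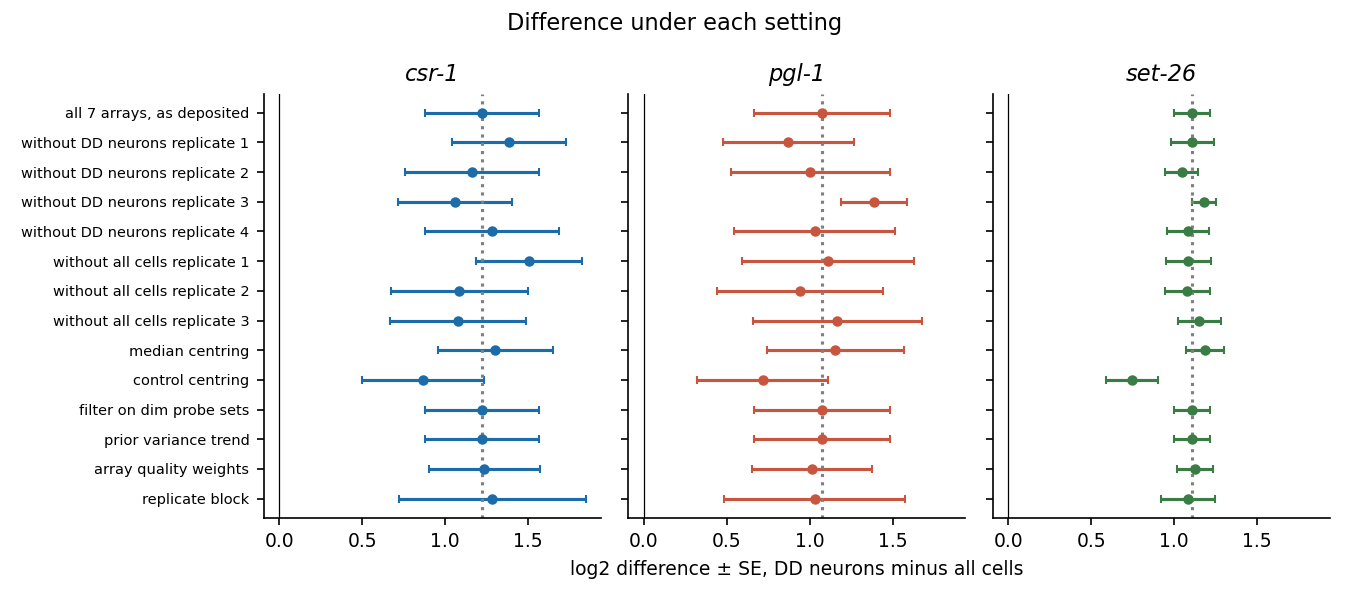
Log2 difference between DD neurons and all cells (x axis) ± SE for csr-1, pgl-1 and set-26 over all 7 arrays as deposited and under 13 alternative settings (y axis). All values are above 0, and the lowest for each gene is that with arrays centred on the array controls: 0.86 for csr-1, 0.72 for pgl-1 and 0.75 for set-26.

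All 3 differences kept their sign under the 13 alternatives shown in the plot of settings, a sign that the selection had largely set. Not every setting could move them. The filter on dim probe sets and the prior variance trend leave a difference as it is, and the replicate block repeats the one without DD replicate 4. The differences ranged from 0.86 to 1.50 for csr-1, from 0.72 to 1.39 for pgl-1 and from 0.75 to 1.19 for set-26. Centring on the array controls gave the lowest value of each gene, and it took set-26 from 1.11 to 0.75 ± 0.16 SE (limma adjusted p = 0.0733). That centring lowers every probe set alike, by 0.36, and moved the median over all tested probe sets from 0.06 to -0.30. Relative to that median the members keep their distance.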

How the data were processed

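Gene expression was measured in 4 samples of DD neurons and 3 of all cells, grouped by their titles, with 1 array each. The authors deposited log2 values made with RMA, per the submitters' processing notes, without a version or probe set definition. RMA corrects background, normalizes between arrays and summarises probes, which compresses folds of dim probe sets. From the authors' deposited list, probe set IDs, gene names, sequence names and the description of set-26 were used. A probe set counted as listed where the authors gave it a score. No value of a score or fold column was used. The labels do not state separate cultures, so p-values reflect array-to-array spread that may be technical. The number of arrays limits the precision.

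Tests used limma 3.58.1 (lmFit, eBayes) in R 4.3.3 on 22548 probe sets, 77 array controls left out, without covariates, two-sided, with Benjamini-Hochberg adjustment and a threshold of 0.05. The procedure was tested on simulated data with independent noise for each probe set. Real arrays can differ from that, so no error rate for the members is drawn from it. SE is from the within-group spread of each probe set. The named genes were all probe sets of the members, the 3 most similar named probe sets of each, 4 DD markers and the list genes that could be named; of several probe sets for a list gene, the brightest was taken. Symbols were updated through RefSeq (198 of 201 genes matched). The members, lists and tests were chosen with earlier results of these data known. Other tables and permutation tests used scipy 1.17.1, numpy 2.4.6 and pandas 2.3.3 in Python 3.11.15.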

Additional observations from a re-analysis of the deposited data

How the results depend on the processing

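The differences of csr-1, pgl-1 and set-26 were positive under all 13 alternatives, a sign that the selection had largely set. They moved by less than the spread between arrays, except that of set-26 with arrays centred on the array controls (0.75). The filter on dim probe sets and the prior variance trend cannot change a difference. The replicate block returned the differences of the fit without DD replicate 4. Leaving out 1 array gave 1.06 to 1.50 for csr-1, 0.87 to 1.39 for pgl-1 and 1.05 to 1.18 for set-26. The counts of called probe sets were less stable than these values. Leaving out 1 array gave 6 to 23 higher and 0 to 39 lower by limma, with 6 and 0 without DD replicate 1 (at an unadjusted p under 0.05, 1211 and 1779). The lower count was 28 with median centring and 393 with control centring, and the filter on dim probe sets gave 65 higher and 93 lower of 11274 tested. With the replicate number of the titles as a replicate block, 2 probe sets were higher and 0 lower by limma. At an unadjusted p under 0.05, 2075 were lower, and the adjusted p of set-26 was 0.156. DD replicate 4 has no all-cell array of its number, so it did not enter the differences of this fit. Less data were left to estimate the spread, and the fall in calls is no measure of pairing alone. The labels give same-numbered arrays only a number in common. Their deviations correlated at -0.0051, 0.07 and 0.09. Numbers 1 and 2 correlated better with another number, and number 3 did not (0.03 at most). These values cannot show whether same-numbered samples were prepared together. With a prior variance that follows the level the adjusted p of set-26 was 0.0795. With no background level in the deposited values, dim values such as pgl-1 in all cells are the least exact.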
